A study of Homo sapiens with 4 samples.

Results

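The chromatin immunoprecipitation and sequencing (ChIP-seq) peaks described here are places where TCF3 was listed without ATOH8, outside and away from coding genes and pseudogenes by the limits below. They are TCF3 peaks on chromosomes 1 to 22 and X that share no base with an ATOH8 peak. Their midpoints lie outside protein-coding genes and more than 5 kb from them, and more than 1 kb from any annotated pseudogene. Bins of 1 Mb that hold 20 or more TCF3 peaks were left out. The rule kept 2109 of 11330 TCF3 peaks on these chromosomes (18.6%), out of 16387 peaks in the lists of both factors. Of the 11330 peaks, 9913 shared no base with an ATOH8 peak, 3926 of these were intergenic, 2650 of those were away from pseudogenes, and 2109 were left outside the dense bins. The peaks were thus chosen by measured values, namely the positions of the TCF3 and ATOH8 peaks, and what follows from position or overlap is given as a description.

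The cells were DU145, a long-established line from a human prostate cancer, fixed with 1% formaldehyde for 10 min. TCF3 was recovered through a Myc tag and ATOH8 through a Flag tag, and each immunoprecipitation had an input, which gives 4 libraries with 1 library per group. The sources used here do not say how the tagged proteins were expressed, and peak lists hold no expression values with which to check the cell line. With 1 library per group there is no replicate check and no test between conditions. Read depth was not known. Shares carry Wilson 95% intervals, which cover counting error alone. The score of a peak is the authors' own value, with no definition in the sources used here. The TCF3 scores step from 887 to 280 beside a line that holds no peak. Any peaks in that range were not analysed here, so the lack of a listed peak at a gene does not show that TCF3 was absent.

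TCF3 encodes an E protein, a broadly expressed basic helix-loop-helix (bHLH) factor that binds DNA as a dimer, either with itself or with a tissue-specific bHLH partner such as MYOD1. E protein dimers recognise the E-box, the hexamer CANNTG, with a preference for CAGCTG and CACCTG, and the ID proteins block them by pairing with them without binding DNA. Intergenic ground holds distal enhancers, which often lie in long gene-poor stretches around developmental regulator genes. It also holds long non-coding RNAs (lncRNAs) and microRNAs, short RNAs that pair with messenger RNAs through their seed.

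Of 1953 such peaks on the chromosomes with listed starts, 189 covered the transcription start of a lncRNA, and the DNA at these starts is the sequence under the peaks that could be read. Windows of 300 bases, from 250 before to 50 after the start, were taken from RefSeq (GRCh38.p14). The windows below lie wholly inside a peak and are written 5′ to 3′ on the strand of the gene. The first 5 belong to the highest-scoring peaks that hold a whole window, and the last to the highest-scoring one with both CAGCTG and CACCTG on either strand. Capitals mark every match to CANNTG, of which CAGCTG and CACCTG are special cases. CAGGTG is CACCTG read from the other strand.
LOC105379444 (chr9:65382904-65383203, plus strand): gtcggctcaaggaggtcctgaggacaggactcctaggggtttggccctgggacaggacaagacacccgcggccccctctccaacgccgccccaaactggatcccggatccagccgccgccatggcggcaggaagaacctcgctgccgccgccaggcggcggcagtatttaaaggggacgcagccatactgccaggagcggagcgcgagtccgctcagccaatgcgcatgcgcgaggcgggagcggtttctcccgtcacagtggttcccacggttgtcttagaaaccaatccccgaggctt
CHASERR (chr15:92883046-92883345, plus strand): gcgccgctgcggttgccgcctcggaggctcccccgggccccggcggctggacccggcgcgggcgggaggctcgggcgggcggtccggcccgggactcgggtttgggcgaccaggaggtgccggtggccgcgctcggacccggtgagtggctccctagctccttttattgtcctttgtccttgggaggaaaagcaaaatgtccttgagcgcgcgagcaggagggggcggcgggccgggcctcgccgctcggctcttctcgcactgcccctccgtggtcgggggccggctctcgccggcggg
LINC02179 (chr16:49465856-49466155, plus strand): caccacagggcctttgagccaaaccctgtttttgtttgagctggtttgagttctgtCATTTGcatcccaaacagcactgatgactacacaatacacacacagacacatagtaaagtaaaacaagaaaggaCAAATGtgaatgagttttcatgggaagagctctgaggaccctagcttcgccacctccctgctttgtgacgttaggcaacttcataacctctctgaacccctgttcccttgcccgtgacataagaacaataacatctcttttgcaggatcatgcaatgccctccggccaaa
MAFTRR (chr16:79770483-79770782, minus strand): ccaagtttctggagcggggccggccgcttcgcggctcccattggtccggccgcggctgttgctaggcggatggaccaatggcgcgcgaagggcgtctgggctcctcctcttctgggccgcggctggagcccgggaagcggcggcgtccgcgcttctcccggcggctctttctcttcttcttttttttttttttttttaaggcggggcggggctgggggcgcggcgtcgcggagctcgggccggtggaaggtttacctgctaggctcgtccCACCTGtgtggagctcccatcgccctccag
LOC105369998 (chr12:114448532-114448831, minus strand): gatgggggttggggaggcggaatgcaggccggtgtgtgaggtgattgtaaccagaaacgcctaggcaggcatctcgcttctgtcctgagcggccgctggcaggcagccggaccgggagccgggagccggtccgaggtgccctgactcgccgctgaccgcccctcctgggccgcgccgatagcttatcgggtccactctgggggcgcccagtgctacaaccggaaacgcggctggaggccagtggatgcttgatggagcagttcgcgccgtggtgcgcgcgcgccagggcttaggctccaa
LINC00404 (chr13:112106580-112106879, minus strand): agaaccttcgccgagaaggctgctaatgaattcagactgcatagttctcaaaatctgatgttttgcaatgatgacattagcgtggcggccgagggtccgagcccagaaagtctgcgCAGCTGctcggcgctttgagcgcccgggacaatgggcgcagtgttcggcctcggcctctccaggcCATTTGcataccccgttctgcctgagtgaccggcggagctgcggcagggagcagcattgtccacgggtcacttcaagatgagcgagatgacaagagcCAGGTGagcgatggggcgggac
LOC105379444, CHASERR and LOC105369998 held no CANNTG in their windows, although their peaks scored 280, 253 and 218. CHASERR is a lncRNA that restrains its neighbour CHD2, a chromatin remodeller gene, whose nearer end lies 17132 bp from the peak midpoint. Its window was 75.3% G + C with 40 CpG. LINC02179, which lies 22023 bp from ZNF423, a zinc finger gene linked to BMP signalling, was the AT-rich exception with 46.0% G + C and 2 matches, which are the same hexamer on opposite strands. MAFTRR, a lncRNA described as a repressor of MAF in T helper cells, had a single CACCTG after its start under a peak of score 227. The LINC00404 window, 33191 bp from the neural factor gene SOX1 by the peak midpoint, held 3 matches, CAGCTG and CAGGTG among them, under a peak of score 178.

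The peaks were denser inside annotated lncRNA genes than on the rest of the ground on which they could fall. The midpoint was inside a lncRNA gene for 766 of 2109 peaks (36.3%, Wilson 95% interval 34.3 to 38.4%), while lncRNA genes made up 21.4% of the eligible ground. Eligible ground is the sequence that meets the same rule of place, between the first and the last annotated gene of each chromosome. It measured 1555 Mb in all, assembly gaps included. The density of peaks was 2.30 per Mb inside lncRNA genes and 1.10 per Mb outside them. Over all TCF3 peaks the share inside lncRNA genes was 18.5%, and it was 14.5% in the 9221 other TCF3 peaks, most of which lie in or near coding genes. Of the 392 ATOH8-only peaks placed by the same rule, 33.9% (29.4 to 38.8%) were inside a lncRNA gene, so the intervals of the TCF3-only and ATOH8-only shares overlap. TCF3-only intergenic peaks at pseudogenes had 15.9%.

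Counting all non-coding classes, 963 peaks (45.7%, 43.5 to 47.8%) were inside or within 1 kb of a non-coding gene, against 28.9% of all TCF3 peaks and 44.1% (39.3 to 49.1%) of the ATOH8-only peaks. The largest class was lncRNA with 941 peaks, followed by microRNA with 30. Peaks at structural RNA genes were rare: 4 were at small nucleolar RNA genes, 3 at ribosomal RNA genes, 2 at tRNA genes and 1 at a small nuclear RNA gene. Within 1 kb of a tRNA, small nuclear, ribosomal, Y or vault RNA gene lay 6 of the TCF3-only intergenic peaks (0.284%, 0.130 to 0.619%). The share was 0.130% (0.0745 to 0.227%) in the other TCF3 peaks and 0.196% (0.0538 to 0.712%) in TCF3-only intergenic peaks at pseudogenes. It was 2.81% (1.57 to 4.95%) in the ATOH8-only peaks, 11 of 392. The ATOH8-only interval overlaps none of these TCF3 intervals, so the low share is not particular to this set. No annotated non-coding gene was within 5 kb of 928 of the 2109 peaks (44.0%).

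Within the set, scores and widths differed by annotation. Peaks that cover a lncRNA start had a median score of 70 (quartiles 51 and 113) and a median width of 969 bp. Peaks inside a lncRNA gene without a listed start scored 52 (43 and 79) at 649.5 bp. Peaks with no lncRNA gene within 1 kb scored 57 at 655 bp. Across all 2109 peaks Spearman's rho of score and width was 0.341, given as a description, and the part of width in these differences was not tested. The whole set had a median score of 58 (quartiles 44 and 89) against 61 in the other TCF3 peaks, and a median width of 671 bp against 731 bp. Scores took 132 distinct values, 393 peaks sat at the lowest value of 36, and 370 reached 100.

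**Figure D1:**
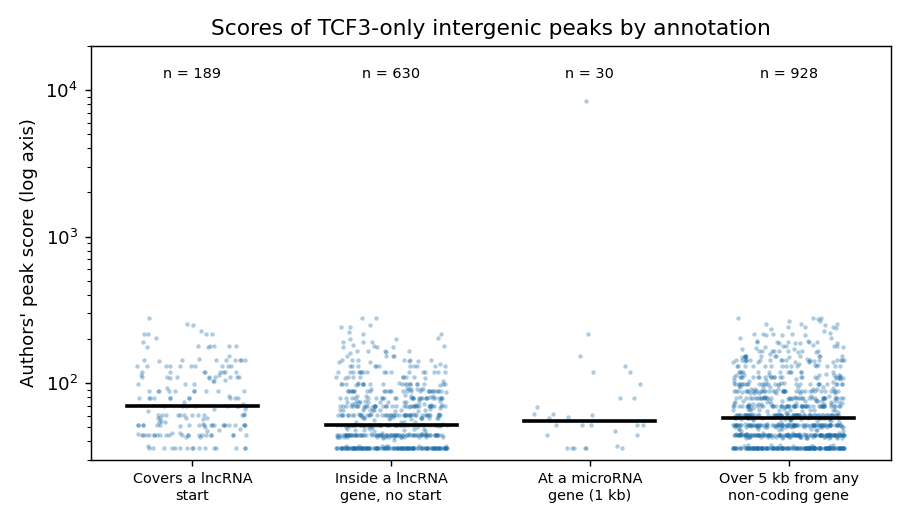
Authors' peak score on a log axis for 4 annotation classes of the TCF3-only intergenic peaks, with 1 point per peak and a bar at the median. The medians are 70 for peaks that cover a lncRNA start, 52 for peaks inside a lncRNA gene with no listed start and 55 for peaks at a microRNA gene, and all classes reach down to 36.

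The 189 peaks over lncRNA starts were 9.68% (8.44 to 11.1%) of the 1953 peaks on chromosomes with windows, against 7.17% of all TCF3 peaks, 6.61% of the other TCF3 peaks and 11.6% (8.79 to 15.3%) of the ATOH8-only peaks. They covered 227 windows of 208 lncRNA genes, and 20 of them covered starts on both strands. RefSeq windows were held for 11383 of 17290 lncRNA genes, with none on chromosome 8, so more starts may be covered than were counted.

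The covered windows stood between other lncRNA starts and the starts under other TCF3 peaks in base composition. They had a median of 59.3% G + C (quartiles 54.3 and 67.7%) and 15 CpG, against 70.0% and 29 CpG in the 648 windows under other TCF3 peaks and 50% and 5 CpG in all 12829 windows. At least 60% G + C was found in 111 of the 227 windows (48.9%), in 80.2% of those under other TCF3 peaks and in 27.5% of all windows. Peaks over windows of at least 60% G + C had a median score of 79, against 61 for those over the remaining windows. Base composition was examined after the values had been seen.

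**Figure D2:**
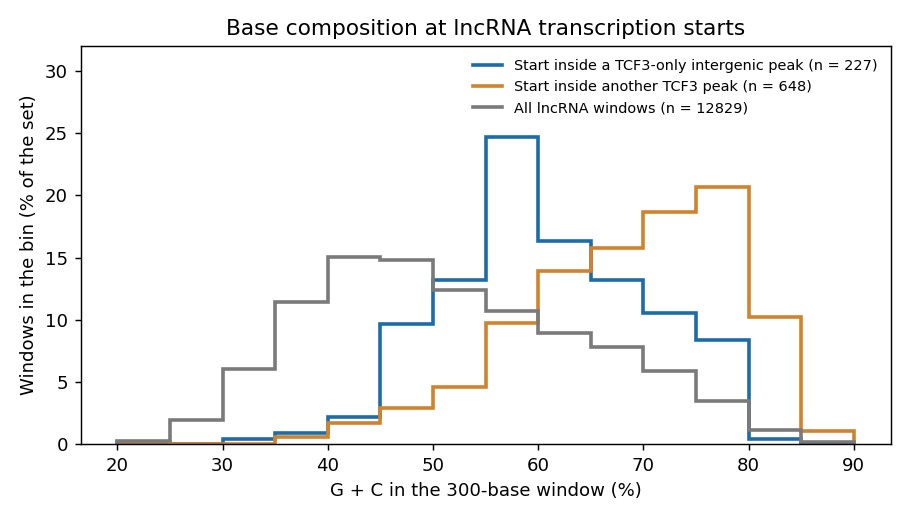
Share of 300-base windows in each 5% step of G + C content, for lncRNA starts inside a TCF3-only intergenic peak (227 windows), inside another TCF3 peak (648) and for all lncRNA windows (12829). The medians are 59.3, 70.0 and 50%, and the windows of the TCF3-only intergenic peaks lie between the other sets.

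The E-box hexamer was about as frequent at these starts as at lncRNA starts in general. A CANNTG on either strand was in 163 of 227 windows (71.8%, 65.6 to 77.3%), against 74.8% of all lncRNA windows and 61.0% of the windows under other TCF3 peaks. The stricter CAGCTG was in 48 windows (21.1%, 16.3 to 26.9%) against 19% of the windows under other TCF3 peaks, 26.2% of those under ATOH8 peaks and 17.8% of all windows. CACCTG was in 62 (27.3%, 21.9 to 33.5%), against 25.2%, 29.2% and 21.6% of the same sets. The CACCTG interval holds the shares under other TCF3 peaks and under ATOH8 peaks and lies just above that of all windows. The 227 windows lie under 189 peaks, and windows that share a peak were counted as independent. These intervals are therefore likely too narrow, and the small gap to all windows is not read as a difference. The frequency of all 3 hexamers depends on base composition, which differs between the sets. The 144 peaks with a window that held a CANNTG and the 55 with a window that lacked it had the same median score of 70. A peak with several windows can count in both groups. A match is a description of the letters in a window around the start, and most of the length of these peaks was not read.

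At microRNAs, 30 peaks lay within 1 kb of 38 of the 1911 annotated microRNA genes (1.99%), while 10.0% of microRNA genes had any TCF3 peak at this distance. A selection of mature forms is given from RefSeq to show shared seeds and the genes described next, with the seed, bases 2 to 8, in capitals. Shared seeds join miR-132-3p with miR-212-3p and miR-485-3p with miR-539-3p.
hsa-miR-132-3p: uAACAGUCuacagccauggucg
hsa-miR-212-3p: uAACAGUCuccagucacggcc
hsa-miR-9-5p: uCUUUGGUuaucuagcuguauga
hsa-miR-9-3p: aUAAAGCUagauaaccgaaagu
hsa-miR-485-3p: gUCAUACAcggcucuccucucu
hsa-miR-539-3p: aUCAUACAaggacaauuucuuu
hsa-miR-148a-3p: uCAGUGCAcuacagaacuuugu
hsa-miR-134-5p: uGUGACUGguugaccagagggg
The peak at MIR132 and MIR212 lay on chromosome 17 from 2049595 to 2050579 with a score of 62, and its midpoint was 5016 bp from HIC1, a tumour suppressor gene. The 3p arms of its microRNAs carry the same seed, AACAGUC, and the microRNAs are transcribed together. Both MIR9-1 and MIR9-2, neural microRNA genes that give the same mature miR-9, had a peak. The score was 120 at MIR9-1 on chromosome 1 and 36, the lowest value, at MIR9-2 on chromosome 5. The neural microRNA gene MIR124-1 had a peak of score 69. MIR148A, whose product targets DNMT1 among others, had a peak of score 52 with its midpoint 27 bp from the gene. The highest-scoring peaks of the class were at MIR3648-1 in the ribosomal DNA (8401), at MIR1268A (216) and at MIR8069-1 (154).

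On chromosome 14 the imprinted region between DLK1 and DIO3, which holds maternally expressed non-coding RNAs and one of the largest microRNA clusters, had 14 of these peaks. Their scores ran from 36 to 166 with a median of 48, below the 58 of the whole set. The highest was inside MEG3, a growth-suppressing lncRNA, from 100827800 to 100828359, and a further MEG3 peak scored 44. RefSeq hairpins of 10 microRNAs lay within 1 kb of 5 of the peaks. A single peak from 101054625 to 101055284, of score 61, was within 1 kb of MIR134, MIR382, MIR485 and MIR668. A peak from 101046202 to 101046932, of score 36, was within 1 kb of MIR381, MIR487B and MIR539. This region was picked after its values had been seen. Its eligible ground is not given here, so the count of 14 cannot be read as a density.

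A list of microRNAs known from epithelia and prostate cancer held 15 microRNA genes and 10 host genes, the lncRNA genes from which microRNAs are cut. None of the 15 microRNA genes had a peak inside or within 1 kb, and the share over all 1911 annotated microRNA genes was only 1.99%. Of the 10 hosts, 3 had a peak, against 23.0% of the 87 annotated microRNA host genes. The listed hosts are longer, with a median of 32004 bp against 19471 bp, and the part of length was not tested. The 3 were MIR99AHG (score 143), the host of miR-99a and let-7c, MIR17HG (66), the host of the miR-17-92 cluster, and MIR193BHG (37). The genes of the miR-200 family, which keeps cells epithelial, had none in the set. Of 23 lncRNA genes known from cancer, 5 had a peak, against 4.98% of all 18177 annotated lncRNA genes. The listed genes are longer, with a median of 22742 bp against 9082 bp, and the part of length in this was not tested. The 5 were MEG3 with 2 peaks, LINC00511 (120), SCHLAP1 (89), a prostate cancer lncRNA that antagonises SWI/SNF, LINC01116 (70) and CASC15 (61). A gene without a peak here can still have a TCF3 peak that the rule leaves out.

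Most of the peaks were far from coding genes. The median distance from midpoint to the nearest protein-coding gene was 130913 bp (quartiles 39288 and 326891 bp), against 73694.5 bp for TCF3-only intergenic peaks at pseudogenes and 27705 bp for the ATOH8-only peaks of the same rule. More than 50 kb away were 1492 peaks (70.7%), and more than 500 kb away 274 (13.0%). By distance, the median score was 61 at 5 to 10 kb, 54.5 at 10 to 50 kb and 56.5 at 50 to 100 kb. It was 57 at 100 to 500 kb, 61 at 500 to 1000 kb and 70 for the 65 peaks beyond 1000 kb. The peak farthest from a coding gene lay on chromosome 22, 4460937 bp from OR11H1, with a score of 235. The next 4 were on chromosomes 4 and 21, with scores of 44 to 99, at 1888926 to 2253926 bp from PCDH7, ARAP2 or NCAM2.

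**Figure D3:**
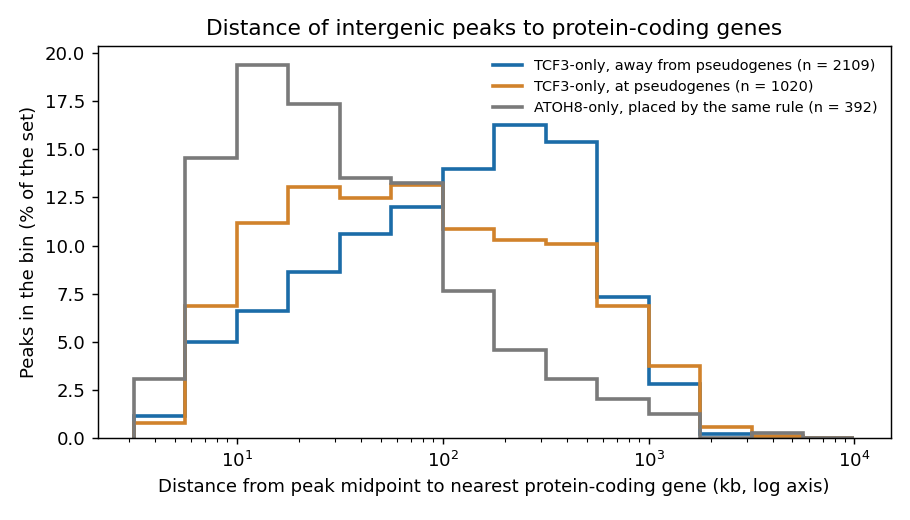
Share of peaks by distance from midpoint to the nearest protein-coding gene (kb, log axis) for TCF3-only intergenic peaks away from pseudogenes (2109), those at pseudogenes (1020) and ATOH8-only peaks placed by the same rule (392). The medians are 130913, 73694.5 and 27705 bp, and the highest bins of the first set lie beyond 100 kb.

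The 2109 peaks had 1090 protein-coding genes as nearest neighbours, 5.46% of 19974. In 10 of 11 lists of coding genes the share with at least 1 peak was higher than that. The lists and their families were chosen with earlier results of these data known and give no independent support for a direction, and genes with more empty ground around them have more room for a peak. Homeobox genes, which pattern the embryo, had a median of 0.0775 Mb of eligible ground each, against 0.0091 Mb over all coding genes. Counts are therefore given also per Mb of ground, where all coding genes together had 1.36 peaks per Mb.

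Homeobox genes were nearest to 68 peaks at 31 of 146 genes (21.2%), or 2.74 per Mb. Of these 68 peaks, 18 were beside IRX1 and 8 beside IRX2, so the density was not spread evenly over the family. The highest scores were beside IRX2 (251), IRX1 (200), LHX2 (154), a forebrain and limb factor, and POU3F3 (154), a neural factor. Others were near MSX2 (130), a bone and skin factor, and PAX6, the eye factor, with 2 peaks of scores 36 and 61. SOX genes were nearest to 22 peaks at 4 of 19 genes, or 3.55 per Mb. SOX11 had 12 of them, of scores 36 to 99, and SOX1 had 7, of scores 36 to 190, so these genes held most of the SOX peaks. SOX2, the stem cell factor, had 2 of scores 36 and 61, and SOX14 had 1 of 49. Forkhead genes had 17 peaks at 8 of 45 genes, or 2.70 per Mb, among them FOXP2, linked to speech (240), FOXQ1 (154) and FOXA2, an endoderm factor (91). GATA and T-box genes had 12 peaks at 4 of 23 genes, or 2.39 per Mb. Of these TBX5, of heart and forelimb, had 3 peaks (highest 218), TBX3 6 (120), GATA3 2 (70) and TBX20 1 (52).

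Among TCF3's own family, 5 of 46 bHLH activator and E protein genes were nearest to 6 peaks (10.9%), or 1.52 per Mb, close to the 1.36 of all coding genes. TCF12, another E protein gene, had 1 peak of score 79 from 57318912 to 57319818 on chromosome 15, 28055 bp away. TCF4, the remaining E protein gene, had 2 peaks of scores 52 and 69 at 144395 and 421752 bp. OLIG1, of oligodendrocytes, and TWIST2, of mesenchyme, had 1 peak of score 79 each, and the muscle factor gene MYOD1 had 1 of score 36. The ID, HES and HEY list, whose products inhibit bHLH factors or repress as bHLH proteins, had 7 peaks at 3 of 17 genes, or 2.85 per Mb. ID2 had 4 of them with scores of 43 to 61, at distances of 5250 to 784885 bp. ID4 had 2 of scores 61 and 70, at 30177 and 32475 bp, and HELT had 1 of 44.

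Cell cycle regulators had 12 peaks at 3 of 27 genes, or 4.39 per Mb, the highest density of the 11 lists, but 10 of the 12 were beside 1 gene, MYCN, an oncogene of the MYC family. CCNE1 (48) and CCND1 (44), cyclin genes of the G1 phase, had 1 each. Of the epithelial-mesenchymal transition and junction genes, CDH2, which encodes N-cadherin, had 5 peaks of scores 52 to 109, and TWIST2 was the other of 31 with a peak, together 1.20 per Mb. BMP, TGF-beta and SMAD genes had 4 peaks at 3 of 39 genes, or 0.587 per Mb: CHRDL2 (99) and BAMBI (89), both antagonists in the pathway, and the ligand gene GDF6 (57). Ferroptosis and lipid synthesis genes, the theme of the study's title, had 3 peaks at 3 of 48 genes, or 1.08 per Mb. They were SLC7A11, the cystine importer that feeds glutathione synthesis (61, at 221994 bp), INSIG1, which holds back sterol synthesis (56, at 77555 bp), and TFRC, the transferrin receptor (36, at 55897 bp). None of the 40 WNT ligand and receptor genes was nearest to a peak, on 2.86 Mb of ground.

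The genes with the most peaks around them were IRX1 with 18 (15.2 per Mb), BCL11B with 16 (13.4 per Mb) and VRK1 with 16 (12.8 per Mb). IRX1 and IRX2 are Iroquois homeobox genes that pattern heart, kidney and neural tissue, BCL11B is a zinc finger factor of T cells and neurons, and VRK1 is a kinase gene. The 18 peaks around IRX1 spanned scores of 36 to 200 with a median of 94, above the 58 of the whole set, and lay 62323 to 534406 bp from the gene. The 8 around IRX2 had a median of 94.5 and included a peak of score 251 from 2713021 to 2715508 on chromosome 5, inside the lncRNA gene LSINCT5. Around MYCN the 10 peaks had a median of 44, below that of the set, at 18881 to 279558 bp. TAFA5, LOC107984449, ADAMTS16, CDH10, SALL3, SOX11 and MYOM2 followed with 11 to 14 peaks each. VRK1 and BCL11B are neighbours on chromosome 14, and most of their peaks lie on the gene-poor ground between them. The genes in the plot of distances were picked after their values had been seen.

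**Figure D4:**
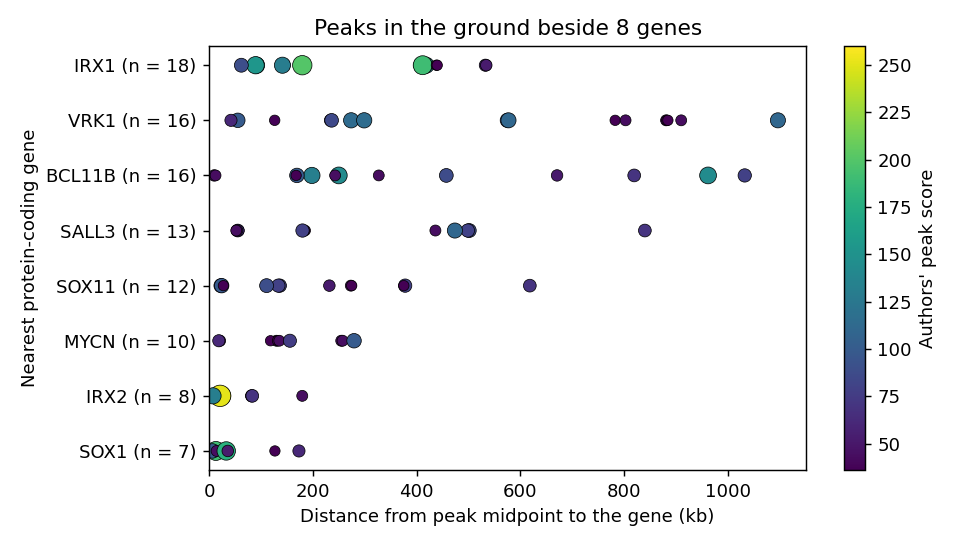
Distance from peak midpoint to the nearest protein-coding gene (kb) for the TCF3-only intergenic peaks beside 8 genes, with 1 point per peak, coloured and sized by the authors' score. Peaks beside IRX1 run from 62323 to 534406 bp, those beside VRK1 to 1096648 bp, and the point of highest score, 251, is beside IRX2. Close points overlap.

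The 10 highest-scoring peaks listed were a pair in ribosomal DNA and 8 peaks at a level of 278 to 280. No TCF3 score was listed between 280 and 887, and any peaks in that range were not analysed. The gap between the pair and the level is therefore not read as a feature of the peaks. RNA45SN2 and RNA45SN3, copies of the gene for the 45S ribosomal RNA precursor on chromosome 21, held peaks of 8401 (8208135 to 8209172) and 5032 (8396137 to 8397071). These genes exist in many near-identical copies that share reads, so the placing of both peaks is uncertain. The other 8 stood at the upper end of the lower range of listed scores, so their rank among themselves carries little. At 280 were a peak inside LOC107984536, 704396 bp from SLC6A15, an amino acid transporter gene, and a peak near LOC105371953, 186499 bp from ADCYAP1, which encodes the neuropeptide PACAP. The peak over the start of LOC105379444, 99843 bp from FOXD4L5, also scored 280. At 278 were peaks nearest to ZNF875, LOC124900844, PCDH7 and FOXD4L6. FOXD4L5 and FOXD4L6 are near-identical copies on chromosome 9, where placing is likewise uncertain. Among small RNA genes the highest peaks were at TRQ-CTG7-1 (131) and TRQ-CTG3-1 (99), glutamine tRNA genes, at the small nucleolar RNA gene LOC124900457 (110), at RNA5S11 (44) and at RNVU1-26 (36).

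Chromosomes differed in how densely they held such peaks. Per Mb of eligible ground, chromosome 19 had 3.21 (51 peaks), chromosome 14 had 2.34 (142), chromosome 20 had 2.18 (67) and chromosome 16 had 2.10 (89). Chromosome 5 had the largest number with 209, or 2.08 per Mb. Chromosome X had 9 peaks, or 0.0938 per Mb, the lowest density of the 23 chromosomes, and its TCF3 peaks of any place numbered 50. Chromosomes 6, 3 and 13 followed with 0.784, 0.785 and 0.806 per Mb.

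**Figure D5:**
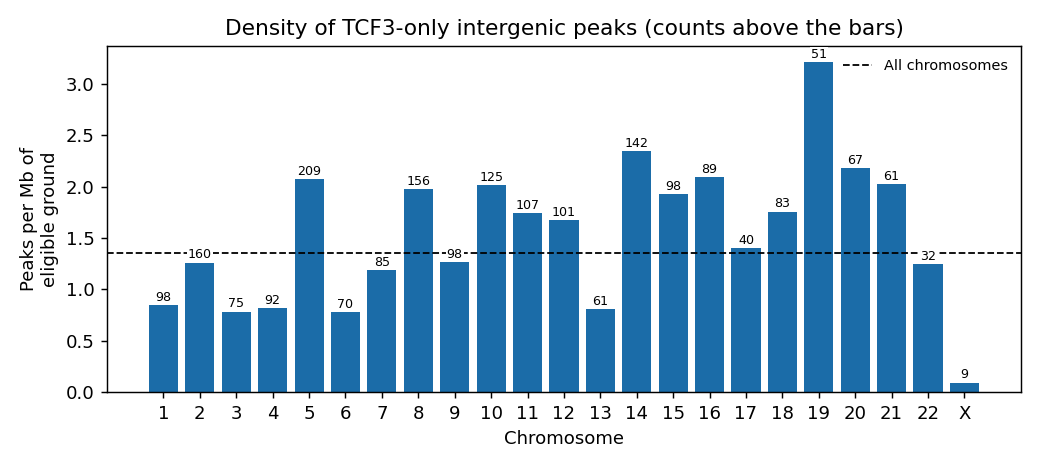
TCF3-only intergenic peaks per Mb of eligible ground on each chromosome, with the number of peaks above each bar and a dashed line at the value of all chromosomes, 1.36 per Mb. Chromosome 19 is highest at 3.21 and chromosome X lowest at 0.0938.

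The outer 5 Mb at either end of the annotated span of each chromosome held 341 peaks (16.2%) on 6.30% of the eligible ground, or 3.48 per Mb, against 1.21 per Mb farther in. Chromosomes 5 (47 peaks), 10 (36), 2 (35) and 18 (35) gave the most, while chromosome X gave none and chromosome 14 gave 2. The limit of 5 Mb was chosen after the values had been seen.

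Many peaks lay close to one another. Another peak of the set was within 10 kb for 624 of 2109 (29.6%, 27.7 to 31.6%) and within 1 kb for 237 (11.2%). Joined at 10 kb, the peaks formed 1765 groups, of which 1485 were single peaks, 280 had at least 2 and 10 had at least 4. The largest had 5 peaks of scores 36 to 225 across 12.5 kb at LINC01414 and MIR124-2HG, the host of the neural microRNA miR-124, on chromosome 8. The next groups had 4 peaks each. With FRMD6 on chromosome 14 as the nearest coding gene, at 20152 to 43753 bp, scores ran from 43 to 253. At LINC02706 on chromosome 11 they ran from 36 to 178, at 287358 to 302110 bp from B3GAT1. On chromosome 4 they ran from 38 to 143, at 515945 to 529621 bp from CWH43. At LINC01377 on chromosome 5 they ran from 70 to 131, at 413911 to 418382 bp from IRX1. The rule leaves out the densest bins, which removes further neighbours.

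ATOH8 was seldom listed nearby. The rule removes shared peaks only, yet an ATOH8 peak lay within 10 kb of 54 of 2109 (2.56%, 1.97 to 3.33%), against 584 of 7804 other TCF3 peaks that share no base with ATOH8 (7.48%, 6.92 to 8.09%) and 2.25% (1.51 to 3.36%) of the TCF3-only intergenic peaks at pseudogenes. The median gap to the nearest ATOH8 peak was 529771 bp. The 54 were concentrated near genes: 18 of the 129 peaks at 5 to 10 kb from a coding gene had ATOH8 within 10 kb, against 15 of the 908 at 100 to 500 kb. Distance from coding genes moves with this share, and its part in the difference was not tested. The closest to ATOH8 were a peak near PABPC3 with a gap of 751 bp, one near LIPI (1044 bp), one near NTM (1228 bp), one inside ID2-AS1 and 5250 bp from ID2 (1450 bp), and one near SH2D4B (1468 bp). Their scores were 70, 44, 36, 44 and 85.

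The limits at coding genes and pseudogenes cut through a continuous range. At the ATOH8 edge, no peak that met the other parts of the rule lay between an overlap of 185 bp and a gap of 751 bp. The peaks just inside the 5 kb limit were at 5013 bp from HNRNPC, 5016 bp from HIC1 and 5053 bp from DORIP1, and those just outside at 4996 bp from ZNF521, 4991 bp from ZFAND2B and 4930 bp from OR2J2. At the pseudogene limit, peaks at 1010 bp from RPS12P25, 1010 bp from OR6L1P and 1028 bp from DBF4P1 were kept, and peaks at 1000 bp from KRT18P38, 1000 bp from FKBP1AP4 and 999 bp from HAUS8P1 were left out. The peaks with the smallest overlaps with ATOH8 that were left out shared 185 bp near LONRF1, 289 bp near CSNK1D and 329 bp near LOC102723475. Bins with 18 or 19 TCF3 peaks were kept, among them the bin from 127 to 128 Mb on chromosome 12 with 13 peaks of the set and the bin from 48 to 49 Mb on chromosome 22 with 13. Bins with 20 TCF3 peaks were left out, among them bin 22 to 23 Mb of chromosome 17, where 15 peaks met the other parts of the rule.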

How the data were processed

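The peak lists of the Myc immunoprecipitation of TCF3 and the Flag immunoprecipitation of ATOH8 in DU145 cells were used, 1 library per group. Peaks are listed by position with a score, a value the authors deposited and which was compared within a list. The build is hg38, per the submitters' processing notes. The aligner, the peak caller, its threshold, whether the input was used and whether positions count from 0 or 1: not given in the sources used here. Inputs were not analysed here, and read depth was not known, which limits precision in an unknown way. Lines without a peak, 5 in the TCF3 list and 3 in the ATOH8 list, were passed over.

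Genes were placed by RefSeq on GRCh38.p14 (19974 protein-coding genes on chromosomes 1 to 22 and X), and windows and microRNAs from its sequence tables. Overlap meant at least 1 shared bp, distances ran from the peak midpoint, and eligible ground was counted in steps of 100 bp, assembly gaps included. Shares have Wilson 95% intervals. No test was made, since there is 1 library per group and the peaks were chosen by readout.

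The members, the 11 coding and 2 non-coding gene lists and the rule for named genes were chosen with earlier results of these data known. Named are the 10 highest-scoring peaks, the 3 on each side of each limit, the 3 highest per non-coding class, the 5 largest groups, the 5 farthest from coding genes, the 5 nearest to ATOH8 and the 4 highest-scoring genes per list, of which 1 item is not reported here. Further genes are named for their number of peaks, their printed sequence or their microRNAs, after their values were seen. The fixed alternatives were a reciprocal overlap of 50% or midpoints within 200 bp as sharing, coding genes to 50 kb, pseudogenes to 5 kb, dense bins kept, the nearer peak edge, the higher-ranked 50% of peaks, leaving out the top 1% and wider windows. The sharing and distance parts of the rule that chooses the peaks were tested on simulated peaks and genes, and the other steps were not. Versions were matplotlib 3.10.9, numpy 2.4.6, pandas 2.3.3, scipy 1.17.1 and Python 3.11.15.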

Additional observations from a re-analysis of the deposited data

How the results depend on the processing

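Of 83 values recomputed under 10 alternative settings for 10 results, 63 moved by less than the interval of the value reported, or by less than 1.5 times for counts. With the higher-ranked 50% of TCF3 peaks by score, 928 peaks met the rule, with a median score of 89, a median width of 811 bp, a median distance of 146683 bp to a coding gene, 577 nearest coding genes, and another peak within 10 kb for 18.3%. With coding genes excluded to 50 kb, the median distance was 225464 bp, 678 coding genes were nearest, 1.61% had an ATOH8 peak within 10 kb and 33.3% another peak of the set. With pseudogenes excluded to 5 kb, 50.9% lay at a non-coding gene, 40.0% inside a lncRNA gene and 31.9% near another peak. Distances from the nearer peak edge gave 49.0% and 41.7% for the first of these shares and for lncRNA genes. With dense bins kept, the median width was 707.5 bp and 37.4% had another peak within 10 kb. A window of 5 kb put 56.0% at a non-coding gene, and windows of 50 kb put 9.48% near ATOH8 and 42.6% near another peak. Wider windows hold more by construction. Also by construction, the higher-ranked 50% has fewer peaks, fewer nearest genes and a higher median score. Excluding coding genes to 50 kb likewise leaves fewer nearest genes and a larger median distance. For the other shifts the cause was not tested. No paired analysis was possible because each group had 1 library and no test was made. What read depth limits could not be assessed from peak lists.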
